A study of Homo sapiens with 6 samples.

Results

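The genes described are the alpha-arrestin genes TXNIP, ARRDC1, ARRDC2, ARRDC3 and ARRDC4, together with MLXIP, which encodes the transcription factor MondoA, and MLX, which encodes its binding partner. These 7 genes were taken by name from the count table of 58381 versioned Ensembl genes, and all 7 passed the filter on low counts that left 17219 genes to test. They were measured by RNA sequencing in MOLM-13, an established human acute myeloid leukaemia line. The cells had been exposed for 20 h to 5 µM DB2115, a compound known here only by its code name, or to the vehicle, 0.001% DMSO. Both groups grew in RPMI with 10% FBS and 1% Pen Strep, and the labels name no genetic change in either. Sample titles list 3 replicates per group, but the third column of each group equalled the sum of the first and second within 1% in 98.5% of genes with 200 or more counts. Those pooled columns were left out, so each group had n = 2 libraries, called A and B after the column letters.

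MondoA and MLX bind DNA as a pair and are known as sensors of glucose 6-phosphate. When this sugar phosphate rises, the pair gathers in the nucleus at carbohydrate response elements, which are paired E-box-like sites in promoters. TXNIP and ARRDC4 are its best known targets, and their products lower glucose uptake by removing glucose transporters from the cell surface. TXNIP also binds reduced thioredoxin. Alpha-arrestins act as adaptors that bring NEDD4-family ubiquitin ligases to membrane proteins.

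The promoters of TXNIP and ARRDC4 are shown because these genes are the textbook targets of one factor pair and yet had opposite fold changes here. Each line gives the 250 bases before the RefSeq transcript start on GRCh38.p14, 5′ to 3′ on the gene's own strand. Capitals mark matches to CACGNG on either strand, where N is any base. TXNIP lies on the minus strand and its window is chr1:145996580-145996829, and ARRDC4 lies on the plus strand with the window chr15:97960453-97960702.
TXNIP: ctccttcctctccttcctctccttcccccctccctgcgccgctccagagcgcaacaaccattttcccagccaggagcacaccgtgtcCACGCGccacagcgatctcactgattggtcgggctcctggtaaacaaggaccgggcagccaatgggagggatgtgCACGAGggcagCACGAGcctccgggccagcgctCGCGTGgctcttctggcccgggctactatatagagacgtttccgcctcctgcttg
ARRDC4: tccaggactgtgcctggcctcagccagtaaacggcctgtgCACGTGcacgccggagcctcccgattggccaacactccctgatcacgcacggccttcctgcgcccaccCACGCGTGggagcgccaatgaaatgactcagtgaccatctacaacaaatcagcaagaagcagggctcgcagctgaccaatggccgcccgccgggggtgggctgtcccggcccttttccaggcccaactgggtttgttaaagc

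The TXNIP promoter shown held 4 matches to CACGNG, and a pair of them, at -88 to -83 and -77 to -72 from the start, was separated by exactly 5 bases. Such a pair, 2 matches to CACGNG in any orientation with 5 bases between them, was found in 27 of 35116 RefSeq windows of 300 bases, or 0.0769%. The motifs were chosen after the sequences were seen, so this share does not measure how unusual the TXNIP promoter is. The ARRDC4 promoter had no pair with that spacing within its window, and pairs farther away or departing from CACGNG were not searched for. It held 3 matches to CACGNG, of which the match at -210 to -205 was the full palindrome CACGTG and the other two overlapped each other. CACGTG was present in 7.26% of all windows, the looser CACGNG in 30.5% and CCAAT, searched on both strands, in 34.6%. CCAAT matched at 2 positions in the TXNIP promoter shown and at 3 in that of ARRDC4. A second RefSeq promoter window of TXNIP held no match to any of these motifs.

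**Figure D1:**
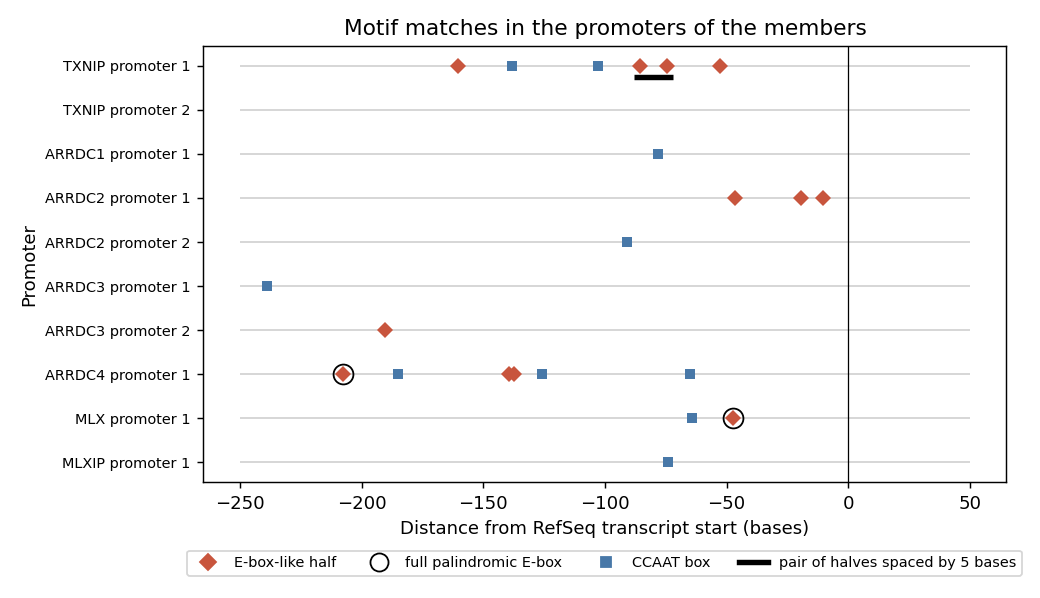
Positions of motif matches (horizontal axis, bases from the RefSeq transcript start) in the windows of 300 bases of all 7 genes, 1 row per promoter, with diamonds for CACGNG (the E-box-like entry of the legend), open circles for CACGTG, squares for CCAAT and a black bar for 2 matches spaced by 5 bases. The spaced pair is seen in 1 TXNIP promoter, at -88 to -72, and in none of the other rows.

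Among the other members, MLX had 1 CACGTG at -50 to -45. The first ARRDC2 promoter held 3 matches to CACGNG and the second ARRDC3 promoter 1, whereas the ARRDC1 and MLXIP windows held none. Of 17 tested genes with the spaced pair, 5 rose and 8 fell with DB2115, a list in which TXNIP itself is counted. Over the 11316 tested genes with a promoter window, 34.1% rose and 36.3% fell. A match describes letters in a window and does not show that a factor was bound.

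Total counts of the 4 libraries lay between 36547900 and 42446253, so that 3 counts correspond to between 0.0725 and 0.0854 counts-per-million units (CPM) on the scale used throughout, after TMM scaling. Libraries A and B differed by more than sampling error: the per-gene chi-square had a median of 1.48 in vehicle and 1.91 in DB2115, where sampling alone gives 0.455. The labels do not state that they came from separate cultures, and p-values therefore reflect only how these libraries vary, which may be technical. All 8 markers chosen for the line, among them CD33, FLT3 and SPI1, stood at 32.3 CPM or more in every library. Of the markers of other cells, CD2 had no count, and the erythroid genes summed to at most 0.145 CPM. The summed level of 5 stromal and epithelial markers was 77.0 to 88.3 CPM in vehicle and 271 to 278 CPM with DB2115, 4 of the 5 being above 1 CPM in every library. That of 5 T and NK cell markers was 149 to 158 and 69.8 to 73.6 CPM, and that of 5 B cell markers 50.2 to 52.0 and 27.1 to 29.7 CPM. In each of these lists only 1 gene was at 1 CPM or more in every library. Of 2 tested T and NK cell markers 1 rose and 1 fell, and of 4 tested B cell markers 3 rose and 1 fell. Neither sum therefore gives the direction of its whole list. The part of these markers in the results was not tested.

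The alpha-arrestin genes moved in opposite directions under DB2115, whereas no change was called for the transcription factor pair. TXNIP rose 1.64-fold and ARRDC3 2.01-fold, ARRDC1 fell 2.15-fold and ARRDC4 1.69-fold, and ARRDC2, MLX and MLXIP were not called. Thus 2 of 7 members rose and 2 fell, by edgeR's quasi-likelihood test at a Benjamini-Hochberg adjusted p under 0.05 over all tested genes. Of all tested genes, 64.1% passed that test, 32.7% rising and 31.3% falling. The members' 4 calls in 7 are close to that background. Their median log2 fold change was -0.07, against 0.03 over all genes tested. The libraries of the groups did not overlap for 6 of the 7 members, and for 81.3% of all tested genes. With so many genes changed, every value is relative to the RNA sequenced. Mitochondrially encoded RNA took 4.91 and 5.64% of counts in the vehicle libraries A and B, and 7.65 and 6.93% with DB2115. In a fit without mitochondrially encoded genes, no member's call changed. The log2 fold changes were then 0.71 for TXNIP, -1.10 for ARRDC1, 1.01 for ARRDC3 and -0.76 for ARRDC4. What the higher mitochondrial share reflects was not tested. Fewer cells that express a gene and less of its RNA per cell cannot be told apart in such bulk samples.

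**Figure D2:**
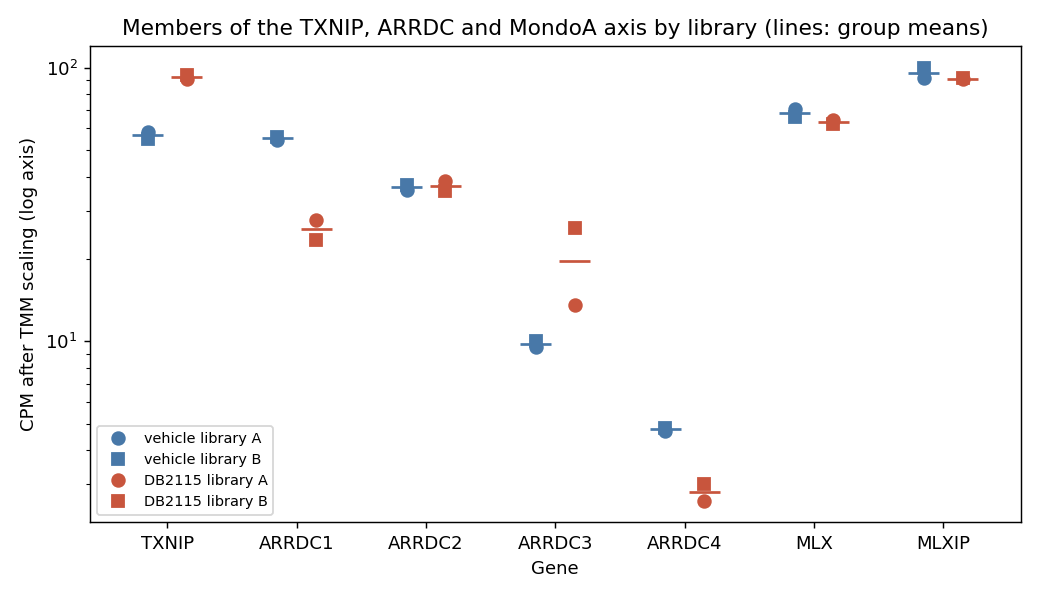
CPM after TMM scaling (vertical log axis) of each member in the 4 libraries, blue for vehicle and red for DB2115, circles for library A and squares for library B, with a line at each group's mean. TXNIP and ARRDC3 lie higher with DB2115 and ARRDC1 and ARRDC4 lower, and the ARRDC3 points of the DB2115 group are far apart, at 13.5 and 25.9 CPM.

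TXNIP, the thioredoxin-interacting protein gene, lies on chromosome 1 from 145992435 to 145996600 on the minus strand (GENCODE release 29, GRCh38). It stood at 58.2 and 55.0 CPM in vehicle libraries A and B and at 90.7 and 94.4 CPM in DB2115 libraries A and B. Both treated libraries were above both vehicle libraries, and the gap was larger than the difference within either group. The means were 56.6 ± 2.24 and 92.6 ± 2.63 CPM (SD, n = 2 each), and edgeR put the log2 fold change at 0.71 ± 0.06 (SE) with an adjusted p of 7.01e-07. A rise of this size is common in these data, since 75.6% of tested genes had a lower fold change. The raw counts behind the value were 2045 and 2273 in vehicle and 3714 and 3912 with DB2115.

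ARRDC4, the alpha-arrestin whose promoter is shown above with that of TXNIP, lies on chromosome 15 from 97960698 to 97973838. Its levels were 4.69 and 4.82 CPM in vehicle and 2.61 and 3.02 CPM with DB2115. These were the lowest levels among the members, from 364 counts in vehicle and 232 with DB2115, and the groups did not overlap. The log2 fold change was -0.76 (SE 0.18, edgeR adjusted p = 0.00276).

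Ratios of counts within a library do not depend on how libraries are scaled. For each ARRDC4 count TXNIP had 12.4 and 11.4 counts in vehicle but 34.7 and 31.3 with DB2115, a 2.77-fold higher ratio. TXNIP had 1.07 and 0.983 counts for each ARRDC1 count in vehicle, near parity, and 3.26 and 4.02 with DB2115, 3.53-fold higher. The ratio of ARRDC3 to ARRDC4 was 2.04 and 2.08 in vehicle and 5.18 and 8.59 with DB2115. Each of these ratios separated the groups, but with 2 libraries against 2 an exact two-sided permutation test cannot give less than p = 0.333. All 6 ratios computed in this family therefore had an adjusted p of 0.4 or more.

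ARRDC3, an adaptor in the downregulation of the beta2-adrenergic receptor, lies on chromosome 5 from 91368724 to 91383359 on the minus strand. It stood at 9.56 and 10.0 CPM in vehicle and at 13.5 and 25.9 CPM in DB2115 libraries A and B. Both treated libraries were above vehicle, but they differed from each other by 0.94 on the log2 scale. Among the 10626 genes averaging 5 CPM or more, 99.9% had a smaller difference between these libraries. The log2 fold change was 1.01 (SE 0.22, edgeR adjusted p = 0.00134). It was 0.46 without DB2115 library B, 1.39 without DB2115 library A and 1.02 without vehicle library B, where the call was lost. A group left with 1 library is assumed to vary like the other group. Where a DB2115 library was left out, the wide difference within DB2115 therefore did not enter the error. Among genes averaging 5 CPM or more, of which 41.8% were higher in DB2115 library B than in A, the pathway lists differed in this respect. Library B was the higher for 17 of 23 genes of glucose 6-phosphate use, 5 of 7 of glucose uptake and 7 of 9 NEDD4-family genes. It was the higher for 3 of 9 of the MAX and MLX network and 2 of 11 of the thioredoxin system. For the remaining lists the numbers were 4 of 6 arrestin-fold genes, 3 of 8 ESCRT genes, 7 of 13 carbohydrate-response genes and 4 of 11 TXNIP partners. The part of that difference between libraries in the ARRDC3 result was not tested.

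ARRDC1, which recruits the budding machinery to release vesicles at the plasma membrane, lies on chromosome 9 from 137605654 to 137615360. It fell from 54.3 and 56.0 CPM in vehicle to 27.8 and 23.5 CPM with DB2115. The groups were far apart and the fall was the largest among the members, put by edgeR at -1.10 ± 0.08 (SE) in log2 fold change with an adjusted p of 1.31e-07. Only 8.41% of tested genes had a lower fold change. Its antisense gene ARRDC1-AS1, on the opposite strand and sharing 29 exonic bases with it, stood at 14.2 ± 0.90 and 13.0 ± 1.57 CPM (n = 2 each). No change was called for that RNA (log2 fold change -0.13, edgeR adjusted p = 0.341). Whether counting used the strand is not stated, so reads in the shared bases, 0.759% of ARRDC1's exonic length, cannot be assigned with certainty.

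ARRDC2, an alpha-arrestin of the same adaptor class on chromosome 19 from 18001132 to 18014102, was measured at 35.8 and 37.2 CPM in vehicle and at 38.6 and 35.3 CPM with DB2115. The groups overlapped. Its log2 fold change was 0.02 (SE 0.07, edgeR adjusted p = 0.851), and the sign turned to -0.02 without vehicle library A and to -0.06 without DB2115 library A. ARRDC5, a further alpha-arrestin, had 3 counts in vehicle and 14 with DB2115 and was too low to test.

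**Figure D3:**
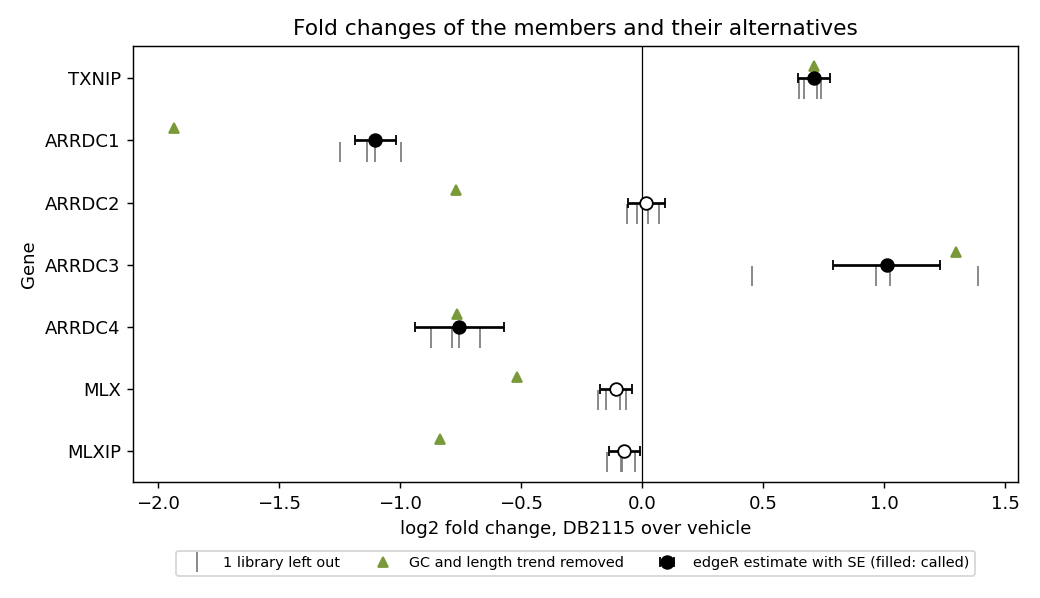
Log2 fold change of DB2115 over vehicle (horizontal axis) for each member, with circles and bars for the edgeR estimate and its SE (filled where called), grey ticks for the fit with 1 library left out and triangles for the estimate less the trend with transcript GC content and length. The ticks of ARRDC3 run from 0.46 to 1.39, and the triangles of ARRDC2, MLX and MLXIP lie to the left of their circles.

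Levels of different genes were compared per kilobase of exonic length, which merges all annotated exons of a gene. Such comparisons depend on the annotation. On that scale TXNIP (15.6 ± 0.62 CPM per kb) and ARRDC1 (14.4 ± 0.31) were the leading alpha-arrestin transcripts in vehicle. They were followed by ARRDC2 (7.88), ARRDC3 (1.98) and ARRDC4 (1.17). With DB2115 TXNIP stood at 25.5 ± 0.73 CPM per kb, well above ARRDC2 (7.98 ± 0.50) and ARRDC1 (6.71 ± 0.81). The TXNIP and ARRDC1 libraries of the vehicle group were close, at 16.1 and 15.2 against 14.2 and 14.6 CPM per kb. The ARRDC1 and ARRDC2 libraries of the DB2115 group were likewise close, at 7.29 and 6.14 against 8.33 and 7.62. As a share of the summed level of the 6 alpha-arrestins, TXNIP went from 38.0 ± 1.48% to 56.7 ± 0.08% and ARRDC1 from 35.1 ± 0.77% to 14.9 ± 2.20% (SD, n = 2). The sum itself was 41.1 ± 0.03 and 45.0 ± 1.22 CPM per kb, so the make-up of the family differed more than its total.

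**Figure D4:**
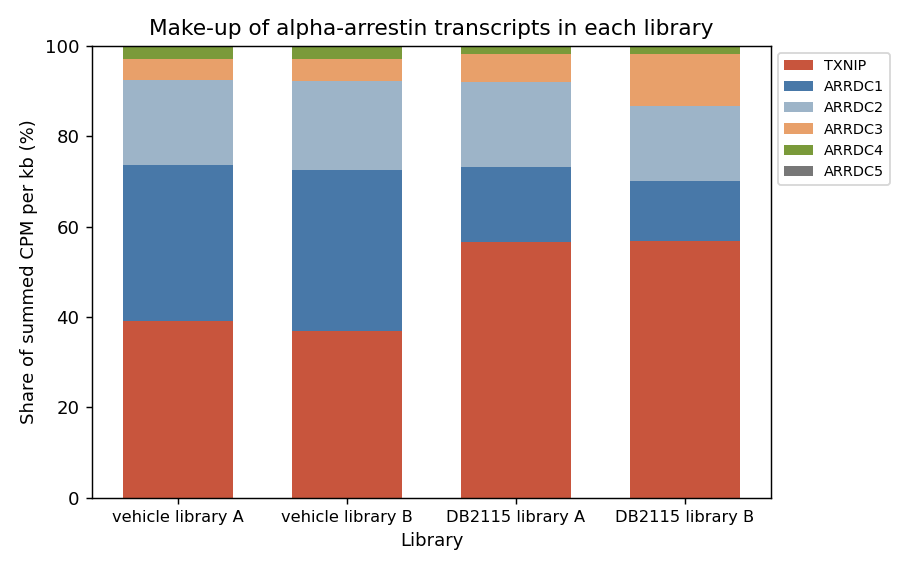
Share of each of 6 alpha-arrestin genes in their summed CPM per kb (vertical axis, percent) in each library (horizontal axis). TXNIP takes 36.9 to 39.0% in vehicle and 56.7 to 56.8% with DB2115, and ARRDC1 34.6 to 35.7% and 13.4 to 16.5%.

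MLXIP, the MondoA gene on chromosome 12 from 122078722 to 122147347, had 91.7 and 100.1 CPM in vehicle and 90.8 and 91.6 CPM with DB2115. The groups nearly touched, and no change was called (log2 fold change -0.07, SE 0.06, edgeR adjusted p = 0.346). MLX, on chromosome 17 from 42567068 to 42573239, had 70.5 and 65.8 CPM in vehicle and 64.3 and 62.0 CPM with DB2115. Its libraries did not overlap but lay close together, and the log2 fold change was -0.11 (SE 0.07, edgeR adjusted p = 0.173). MLX shares 770 exonic bases, 18.1% of its exonic length, with PSMC3IP on the opposite strand, which had 9.77 and 8.18 CPM and was not called. Per kilobase of merged annotated exons, MLX stood above MLXIP in both groups. The levels were 16.0 ± 0.78 against 6.90 ± 0.43 CPM per kb in vehicle and 14.8 ± 0.38 against 6.56 ± 0.04 with DB2115. MLXIPL, the ChREBP gene and a paralogue of MondoA, had no count in vehicle and 9 with DB2115, too few to test.

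Fold changes in these libraries followed the GC content and length of transcripts, and the members differ widely in this respect, from 37.6% GC for ARRDC3 to 62.8% for ARRDC1. When the trend over all tested genes was removed, an alternative chosen after seeing the data, TXNIP (0.71) and ARRDC4 (-0.77) barely moved. ARRDC1 (-1.94) and ARRDC3 (1.30) lay further from 0 than before. ARRDC2 (60.2% GC) then stood at -0.77, MLXIP (57.9% GC) at -0.83 and MLX (51.8% GC) at -0.52, but these values carry no test. The cause of the trend was not tested, and for ARRDC2, MLX and MLXIP the lack of a call applies only to values without that correction. The same values, called trend-removed and untested, are given with the lists for named genes that move by more than 1.5 times or change sign.

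Around MondoA and MLX, the wider network of MAX and MLX partners moved both ways. Of 9 tested genes of 11 listed, 4 rose and 4 fell, with a median log2 fold change of -0.11. MXD4, a MAX partner that represses E-box genes, rose from 15.8 ± 0.99 to 43.0 ± 4.66 CPM, and MXD3, of the same repressor group, rose with a log2 fold change of 0.96. MYC, the growth-promoting partner of MAX, had a log2 fold change of -4.66 and fell furthest of this list, and MAX itself fell from 35.6 ± 3.25 to 23.6 ± 0.76 CPM. MNT, which pairs with MAX or MLX, was not called (-0.11). The trend-removed values were 0.73 for MXD4, 0.21 for MXD3, -0.99 for MAX and -1.003 for MNT, and the list median was -0.40. All list calls here and below come from the edgeR fit over all genes. Each list count stands against 32.7% of all tested genes rising and 31.3% falling.

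The thioredoxin system, to which TXNIP binds, was lower for more genes than it was higher. Of 12 tested of 13 listed, 6 fell and 3 rose, with a median log2 fold change of -0.17. TXN, the cytosolic thioredoxin that TXNIP binds, fell by 0.70 on the log2 scale (adjusted p = 9.14e-07 by edgeR). The count ratio of TXNIP to TXN was 0.299 and 0.305 in vehicle and 0.756 and 0.852 with DB2115, 2.66-fold higher. PRDX4, the peroxiredoxin of the endoplasmic reticulum, fell from 68.8 ± 0.05 to 24.1 ± 1.95 CPM, and TXNRD1, the cytosolic thioredoxin reductase, from 274 ± 15.1 to 141 ± 6.33 CPM. The mitochondrial reductase TXNRD2 (0.87) and the peroxiredoxin PRDX5 (0.79) rose. The trend-removed values of TXNRD2 (0.04) and PRDX5 (0.14) were near 0, whereas TXNRD1 stood at -1.05, and the list median was -0.49.

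Among the NEDD4-family genes, those that rose were ligases, and the 1 that fell was an adaptor. Of 10 tested NEDD4-family ligases and adaptors, 4 rose, 1 fell and 5 were not called, with a median log2 fold change of 0.02. The shares that rose and fell were 40% and 10%, against 32.7% and 31.3% over all tested genes. WWP2 rose from 78.7 ± 3.59 to 119.5 ± 3.42 CPM, and ITCH, the ligase known to target TXNIP, from 43.1 ± 1.89 to 54.5 ± 1.46 CPM. NDFIP1, a membrane adaptor that activates these ligases, fell from 44.3 ± 0.78 to 25.1 ± 2.11 CPM. HECW2, a further ligase named here after its value was seen, had 6 and 0 counts in vehicle and 15 and 32 with DB2115 and rose with a log2 fold change of 2.79 (SE 0.84, edgeR adjusted p = 0.011). The trend-removed value of WWP2 was below 0 (-0.13), and that of NDFIP1 was -0.43. The number that rose was 2 without vehicle library B and 2 without DB2115 library B. Among 8 genes of the ESCRT machinery, which ARRDC1 recruits, 2 rose and 3 fell, among them VPS37B (0.26), VPS4B (0.26), VPS4A (-0.33) and VPS28 (-0.22). With the trend removed VPS37B lay below 0 (-0.47), and VPS4B stood at 0.49, VPS4A at -0.89 and VPS28 at -1.04. Those counts fell to 0 risen without vehicle library B, and to 1 fallen without vehicle library A, without vehicle library B, and with upper-quartile or total-count scaling.

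Other genes with an arrestin fold were mostly higher. Of 7 tested, 4 rose and 1 fell, with a median log2 fold change of 0.54. The shares that rose and fell were 57.1% and 14.3%, against 32.7% and 31.3% over all tested genes. ARRB2, the beta-arrestin 2 gene, rose from 147 ± 8.12 to 286 ± 4.51 CPM and RGP1, a Golgi trafficking factor, from 34.3 ± 0.43 to 64.7 ± 0.92 CPM. VPS26B, a retromer subunit, fell with a log2 fold change of -0.29. The trend-removed values were 0.31 for ARRB2, 0.33 for RGP1 and -0.94 for VPS26B. ARRB1, named here after its value was seen, also rose (0.54), but its trend-removed value was below 0 (-0.07). The VPS26B call was lost without vehicle library B, and 2 genes fell without DB2115 library B.

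Genes of glucose uptake and phosphorylation, the step that supplies the MondoA signal, were mostly higher, while the hexokinase genes changed in opposite directions. HK2 fell from 176 and 196 CPM in vehicle to 30.4 and 41.2 CPM with DB2115, and edgeR put the log2 fold change at -2.38 ± 0.11 (SE) with an adjusted p of 1.44e-09. HK3 rose from 1.39 ± 0.25 to 15.1 ± 0.81 CPM, and HK1, named here after its value was seen, from 131 ± 4.35 to 297 ± 8.58 CPM. SLC2A6, a transporter of the glucose transporter family, rose with a log2 fold change of 2.47. The trend-removed values were 0.67 for HK1 and 1.59 for SLC2A6, and the list median went from 0.76 to 0.40. Of 10 tested genes 7 rose and 1 fell, and the fallen gene was HK2. Without DB2115 library B 2 genes fell. SLC2A1, the main glucose transporter removed by TXNIP, was not called (79.4 and 72.2 against 63.7 and 70.6 CPM, edgeR adjusted p = 0.0566), and its trend-removed value was -0.76.

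Downstream of glucose 6-phosphate, 12 of 24 tested genes fell and 5 rose, with a median log2 fold change of -0.17. SLC16A1, the monocarboxylate exporter MCT1, fell from 138 ± 1.41 to 35.4 ± 0.46 CPM, and LDHB, a lactate dehydrogenase subunit, by 1.01 on the log2 scale (SE 0.07). PKM, a pyruvate kinase, rose with a log2 fold change of 0.51, but its trend-removed value was 0.00864 and the list median then -0.78. The number that rose was 3 without vehicle library A, without vehicle library B or without DB2115 library B.

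Carbohydrate-response genes described for MondoA or ChREBP in other cells did not share 1 direction. Of 15 tested genes other than the members, 6 rose and 7 fell, with a median log2 fold change of -0.08. KLF10, a transcriptional repressor, rose from 23.0 ± 0.38 to 73.4 ± 0.78 CPM, and BMAL1, a clock factor, from 7.70 ± 0.34 to 17.5 ± 0.14 CPM. HK2, also a gene of the uptake list, and FASN, the fatty acid synthase, fell, their log2 fold changes being -2.38 and -1.40. PFKFB3, which the uses of glucose 6-phosphate also include, was not called. The trend-removed values of FASN (-2.47) and PFKFB3 (-0.74) lay lower, as did the list median (-0.74).

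Among 11 tested regulators and partners of the TXNIP protein, 6 rose and 3 fell, with a median log2 fold change of 0.31. NLRP3, the inflammasome sensor to which TXNIP can bind, fell from 92.3 ± 0.16 to 47.7 ± 1.11 CPM, and DDIT4, the mTOR inhibitor REDD1 and a TXNIP partner, from 686 ± 29.9 to 385 ± 67.6 CPM. HIF1A, the hypoxia-inducible factor subunit, rose from 52.5 ± 0.04 to 84.1 ± 2.48 CPM and RPTOR, a subunit of mTOR complex 1, with a log2 fold change of 0.54. With the trend removed RPTOR lay below 0 (-0.34), HIF1A stood at 1.04 and DDIT4 at -1.45, and the list median was -0.03.

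**Figure D5:**
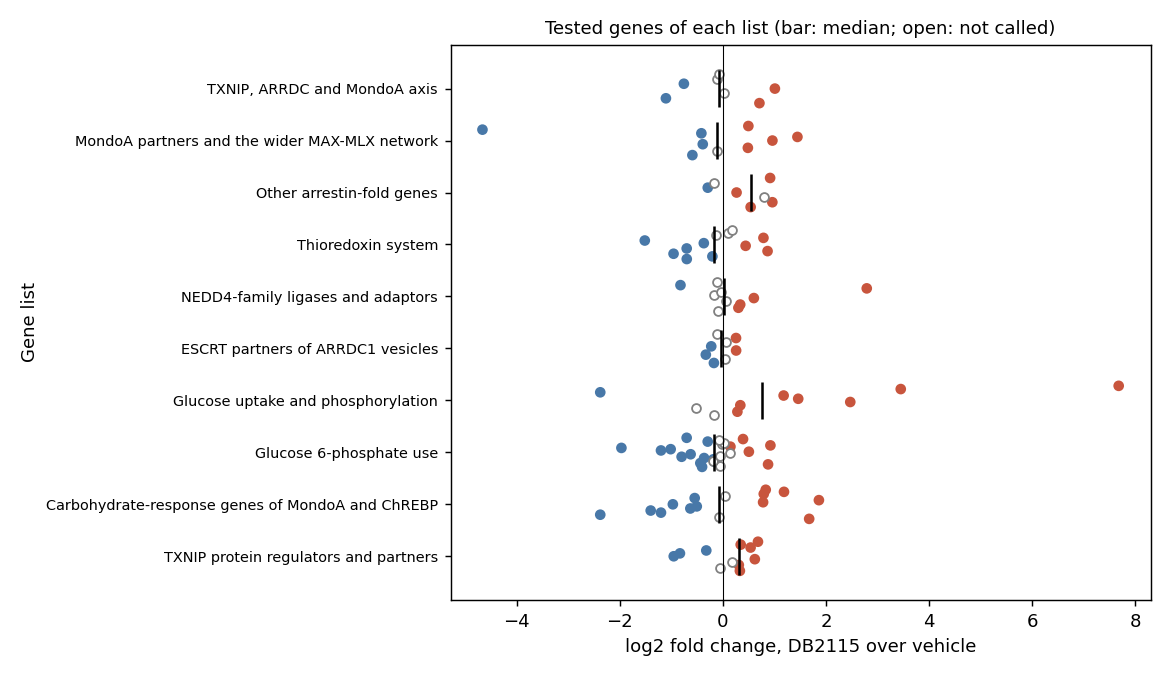
Log2 fold change of DB2115 over vehicle (horizontal axis) of every tested gene of the 7 members and the 9 pathway lists (rows), red for genes that rose, blue for genes that fell, open for those not called, with a black bar at each median. The medians lie between -0.17 and 0.76, and the median furthest from 0 is that of glucose uptake and phosphorylation.

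The profiles closest to TXNIP over the 4 libraries were sought among 10625 other genes averaging 5 CPM or more, by the distance between log2(CPM + 1) values centred on each gene's mean. The 5 closest were SHMT1, DENND1A, UBE3B, CYSLTR1 and a gene listed by its Ensembl identifier only. SHMT1, a serine hydroxymethyltransferase, had 52.5 and 49.9 CPM in vehicle and 82.0 and 85.0 CPM with DB2115, but its trend-removed log2 fold change was 0.25. Those of DENND1A (-0.07) and UBE3B (0.20) were also low, whereas CYSLTR1 stood at 0.90 and the gene without a symbol at 0.89. Of the members with that level, ARRDC3 was 3229th in this order and ARRDC1 9561st, so neither was among TXNIP's nearest profiles. With 4 libraries in 2 groups, this likeness mostly restates the size of the fold change.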

How the data were processed

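The authors deposited raw read counts per gene for 58381 versioned Ensembl identifiers in 6 columns, not normalised. Per the submitters' processing notes, FastQC, STAR, DESeq2 and build hg38 were used. How reads were assigned to genes, with which annotation and strand setting, was not given in the sources used here. Per the labels' protocols, libraries were built from 1.0 µg of RNA by a sequencing company. Symbols were found for 58261 identifiers. Coordinates and exonic lengths came from GENCODE release 29 on GRCh38, and promoter windows (250 bases before to 50 after the start) from RefSeq on GRCh38.p14. All 7 members were matched there.

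Counts were scaled by TMM, filtered by filterByExpr (minimum count 10, minimum total 15) and fitted with edgeR 4.0.16 (glmQLFit, glmQLFTest) under R 4.3.3. Treatment was the sole model term. Standard errors are the log2 fold change over the root of F. Counts were also simulated for 17219 genes, with 200 genes changed and the same dispersion for every gene. There, 60% of genes changed 1.5-fold and 84% of those changed 2-fold were recovered, with 11 false calls of 183. In the data 64.1% of genes were called and the spread differs between genes, so these rates need not carry over. Alternatives were other scalings, filters and thresholds, DESeq2 1.42.0, limma-voom (limma 3.58.1), libraries left out, all 6 columns, a fit without mitochondrially encoded genes and a block on column letters, and, added later, removal of the loess trend with GC content and length. Ratios were compared by exact permutation in scipy 1.17.1. Named list genes are up to 2 with the smallest adjusted p in each direction; others are named as noted or because they bear on a member. The members and lists were chosen with earlier results of these data known, and the motifs after the sequences were seen. Some genes that this rule would name are not reported here.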

Additional observations from a re-analysis of the deposited data

How the results depend on the processing

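The calls of TXNIP, ARRDC1 and ARRDC4 and their directions held in every tested fit, and fell short only of a threshold that also asked for a 2-fold change in the case of TXNIP (0.71) and ARRDC4 (-0.76). With 1 library left out, log2 fold changes ran from 0.65 to 0.74 for TXNIP, -1.25 to -0.996 for ARRDC1, -0.87 to -0.67 for ARRDC4, 0.46 to 1.39 for ARRDC3, -0.0638 to 0.0708 for ARRDC2, -0.18 to -0.07 for MLX and -0.15 to -0.03 for MLXIP. The ARRDC3 call was lost without vehicle library B, leaving 1 risen member in place of 2 (range 1 to 2). The lone vehicle library is then assumed to vary like the DB2115 group, and a lone DB2115 library like the vehicle group. With all 6 columns, which count the pooled columns as libraries, MLX (-0.13, adjusted p = 0.00748) and MLXIP (-0.0950, adjusted p = 0.0315) were called, 4 members fell and ARRDC2 stood at -0.00326. ARRDC2 was -0.02 without vehicle library A. MLXIP turned to 0.0218 with upper-quartile factors, 0.0216 with total counts and 0.00949 under a filter of 1 CPM in 3 libraries. With the GC and length trend removed, log2 fold changes were -1.94 for ARRDC1, -0.77 for ARRDC2, 1.30 for ARRDC3, -0.52 for MLX and -0.83 for MLXIP. For these changes the cause was not tested. At least a 2-fold change was met by 4650 of the 11030 genes called (3009 higher, 1641 lower). It was met by 1 of the 2 members that rose and 1 of the 2 that fell. Of the 77 called genes of the pathway lists 17 met it, a smaller share than over all genes called. The replicate block on column letters gave ARRDC3 a log2 fold change of 0.96, called 11424 genes in place of 11030 and altered no member's call. The letters are not the replicate numbers of the titles, and A minus B differences of the groups had a correlation of 0.0464 over genes. For the counts of single lists, 249 of 288 alternatives stayed within 1.5 times. ARRDC4 rests on the fewest counts of the members, 364 in vehicle and 232 with DB2115.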
